A study of Mus musculus with 8 samples.

Results

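Amacrine cells are the inhibitory interneurons of the inner retina, and 9 genes for their transmitters and identity were followed in retinas of wild-type mice and of mice labelled as knockouts of Kv8.2. The genes were taken by symbol from a table of 26824 genes, and all 9 were present: Gad1, Gad2, Slc32a1, Slc6a9, Tfap2a, Tfap2b, Chat, Slc18a3 and Th. The study sequenced RNA from the whole retina of untreated mice aged 1 month, with 2 retinas pooled into each library. There were 3 libraries of genotype WT, numbered WT 1 to WT 3, and 5 of genotype Kv8.2 KO, numbered KO 2 to KO 6. Kv8.2, encoded by Kcnv2, is a potassium channel subunit of photoreceptors that works only together with other Kv subunits. The labels name no strain, sex or allele for the knockout. The study's own test used 3 KO libraries without naming the 2 left out, so all 8 libraries are compared here.

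Most amacrine cells release either GABA or glycine. GABA is made from glutamate by 2 decarboxylases, the products of Gad1 and Gad2, while glycinergic cells take glycine up through the transporter GlyT1, the product of Slc6a9, and both transmitters enter synaptic vesicles through the transporter VGAT, the product of Slc32a1. Starburst amacrine cells add acetylcholine, made by choline acetyltransferase (Chat) and loaded into vesicles by VAChT (Slc18a3), and they are known for the direction selectivity of ganglion cells. A sparse class releases dopamine, whose synthesis is limited by tyrosine hydroxylase (Th). Tfap2a and Tfap2b encode AP-2 transcription factors that amacrine cells need as they differentiate and still express in the adult retina.

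Of the 9 genes, Slc18a3 was the single one called higher in the libraries labelled KO when all 8 libraries were tested, by 1.68-fold, and none was called lower, where 7.58% of all tested genes were called. The call was lost with a correction for GC content (log2 fold change 0.49, adjusted p = 0.0869) and without any 1 of 6 of the libraries. Gad1, Tfap2a and Tfap2b lay within 0.10 of 0 on the log2 scale, and Gad2, Chat and Th, at -0.10, 0.23 and -0.17 on that scale, were not called either. Slc32a1 and Slc6a9 were higher in the mean without passing the test over 8 libraries, and both were called higher when KO 4, KO 5 and KO 6 alone were set against WT, a comparison that called 42.8% of all genes. With a correction for GC content Slc6a9 was not called there (0.07) and Slc32a1 stood at 0.22 in place of 0.60.

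The count of each gene was given per 1e+06 counts of its library (CPM), with library sizes corrected by TMM, the trimmed mean of M values. A gene is called here at an adjusted p-value under 0.05 in edgeR's quasi-likelihood test over all genes, and each fold change is KO over WT. Libraries held 17759146 to 25188870 counts, so that 3 counts, the floor used here, equal 0.130 to 0.164 CPM. Kcnv2, the targeted gene, was present in every library, at 519 to 551 CPM in WT and 398 to 585 CPM in the libraries labelled KO, with a log2 fold change of -0.24 ± 0.14 (SE) and an adjusted p of 0.275. In KO 4 to KO 6, which all lay below WT, it fell by 0.38 on the log2 scale (adjusted p = 0.000116), and in KO 2 and KO 3 the value was -0.04. Kcnv2 was highest in KO 2, above every WT library. The labels do not say which stretch of the gene was deleted, and every library labelled KO kept the transcript. Its level therefore cannot settle whether a label is right. KO 4, KO 5 and KO 6 stood apart: they scored 45.7 to 58.1 on the first principal component against -40.2 to -11.9 in the other 5 libraries, and mitochondrial genes took 3.03 to 3.70% of their counts against 5.23 to 7.92%. Lens genes took 5.02% of the counts of KO 3 and at most 0.171% elsewhere. Y-linked transcripts were at 5425 counts in WT 3 and at 18 to 38 counts in the others. The 9 genes are therefore also compared for KO 2 and KO 3 and for KO 4 to KO 6, both against the same 3 WT libraries. All 9 genes, which also serve as the amacrine markers, were counted in every library, the lowest value being 20 counts of Th in KO 2. This shows that their transcripts were present. It is no separate check of the tissue label, because the markers are the genes under study. In RNA from whole tissue, fewer cells of a type and less RNA per cell cannot be told apart.

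The 2 cholinergic genes sit in one locus. On GRCm38, Slc18a3 (ENSMUSG00000100241) occupies chr14:32462438-32464850 on the minus strand, inside the span of Chat (ENSMUSG00000021919) at chr14:32408203-32465989 on the same strand, and no exon of one overlaps an exon of the other. The 250 bases before each start, from RefSeq on GRCm38.p6, are shown because the neighbours differed in their call. Capitals mark matches to GCCNNNGGC, the core letters bound by AP-2 factors, searched on both strands with overlaps allowed.
Slc18a3, chr14:32464851-32465100, minus strand: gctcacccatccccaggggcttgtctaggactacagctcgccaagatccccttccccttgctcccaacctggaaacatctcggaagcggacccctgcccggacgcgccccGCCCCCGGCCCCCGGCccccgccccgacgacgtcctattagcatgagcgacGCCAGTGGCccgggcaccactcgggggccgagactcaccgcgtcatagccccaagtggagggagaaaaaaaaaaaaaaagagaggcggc
Chat, chr14:32465910-32466159, minus strand: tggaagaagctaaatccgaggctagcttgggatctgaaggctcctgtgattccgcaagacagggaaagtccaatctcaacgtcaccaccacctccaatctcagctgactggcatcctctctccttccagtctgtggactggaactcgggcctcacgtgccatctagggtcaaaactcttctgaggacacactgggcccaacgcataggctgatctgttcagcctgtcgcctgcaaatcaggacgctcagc
The Slc18a3 window held 3 matches, beginning at -140, -133 and -89 from the start, of which the first pair overlap, and the Chat window held none. Among the 9 genes Gad2 was the other one with matches, 2 of them. The letters occurred in 16.59% of 32851 mouse promoter windows of 300 bases, so a match describes the sequence and names no binding site. The cyclic AMP response element TGACGTCA was found in the Th window alone among the 9 genes, beginning at -45, and in 1.79% of all windows.

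Slc18a3, the vesicular acetylcholine transporter, measured 5.54, 4.23 and 5.82 CPM in WT 1 to WT 3. In KO 2 to KO 6 it measured 8.60, 6.56, 7.98, 10.5 and 10.1 CPM. Every library labelled KO lay above every WT library, with KO 3 nearest to WT and KO 5 farthest. The means were 5.20 ± 0.846 CPM (SD, n = 3) and 8.75 ± 1.61 CPM (SD, n = 5), from 90 to 131 counts per WT library and 138 to 221 counts per KO library. This gave a log2 fold change of 0.75 ± 0.19 (SE; adjusted p = 0.042), and a two-sided exact permutation test of log2 CPM gave p = 0.0357, the smallest that 3 against 5 libraries allow. Slc18a3 was thus 1 of 9 genes called, where 7.58% of the 20167 tested genes were called either way, 4.74% higher and 2.84% lower. It was also the one gene of the 9 whose groups did not overlap, a pattern shown by 20.9% of all tested genes.

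The call for Slc18a3 sat close to the threshold. Against WT, the log2 fold change was 0.55 ± 0.21 (SE; adjusted p = 0.223) for KO 2 and KO 3 and 0.88 ± 0.16 (SE; adjusted p = 0.000926) for KO 4 to KO 6. The call was lost without WT 1 (adjusted p = 0.135), WT 2 (0.181), WT 3 (0.107), KO 4 (0.0783), KO 5 (0.0948) or KO 6 (0.0843), and it was kept without KO 2 or KO 3, with log2 fold changes of 0.63 to 0.85 over these 8 fits. With a correction for GC content, described below, it was 0.49 ± 0.16 (SE; adjusted p = 0.0869).

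Chat, which makes the acetylcholine that Slc18a3 loads, measured 15.8, 11.4 and 15.4 CPM in WT and 19.4, 12.5, 16.4, 17.3 and 17.8 CPM in KO 2 to KO 6. The groups overlapped through KO 3, which lay between the WT libraries. The log2 fold change was 0.23 ± 0.16 (SE; adjusted p = 0.386) over 8 libraries, 0.17 ± 0.21 for KO 2 and KO 3, and 0.28 ± 0.12 (adjusted p = 0.0808) for KO 4 to KO 6.

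A ratio of 2 genes within a library does not depend on how libraries are scaled. The count of Slc18a3 divided by that of Chat was 0.349, 0.370 and 0.379 in WT, and 0.442, 0.527, 0.485, 0.609 and 0.567 in KO 2 to KO 6. The WT ratios spanned a narrow range, and all 5 ratios of the libraries labelled KO lay above it, at a mean of 0.526 ± 0.0659 (SD, n = 5) against 0.366 ± 0.0150 (SD, n = 3). The ratio is a description and was not tested. It does not show which of the genes moved, and it does not remove a trend with GC content, which is 61.2% in Slc18a3 and 54.3% in Chat.

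**Figure D1:**
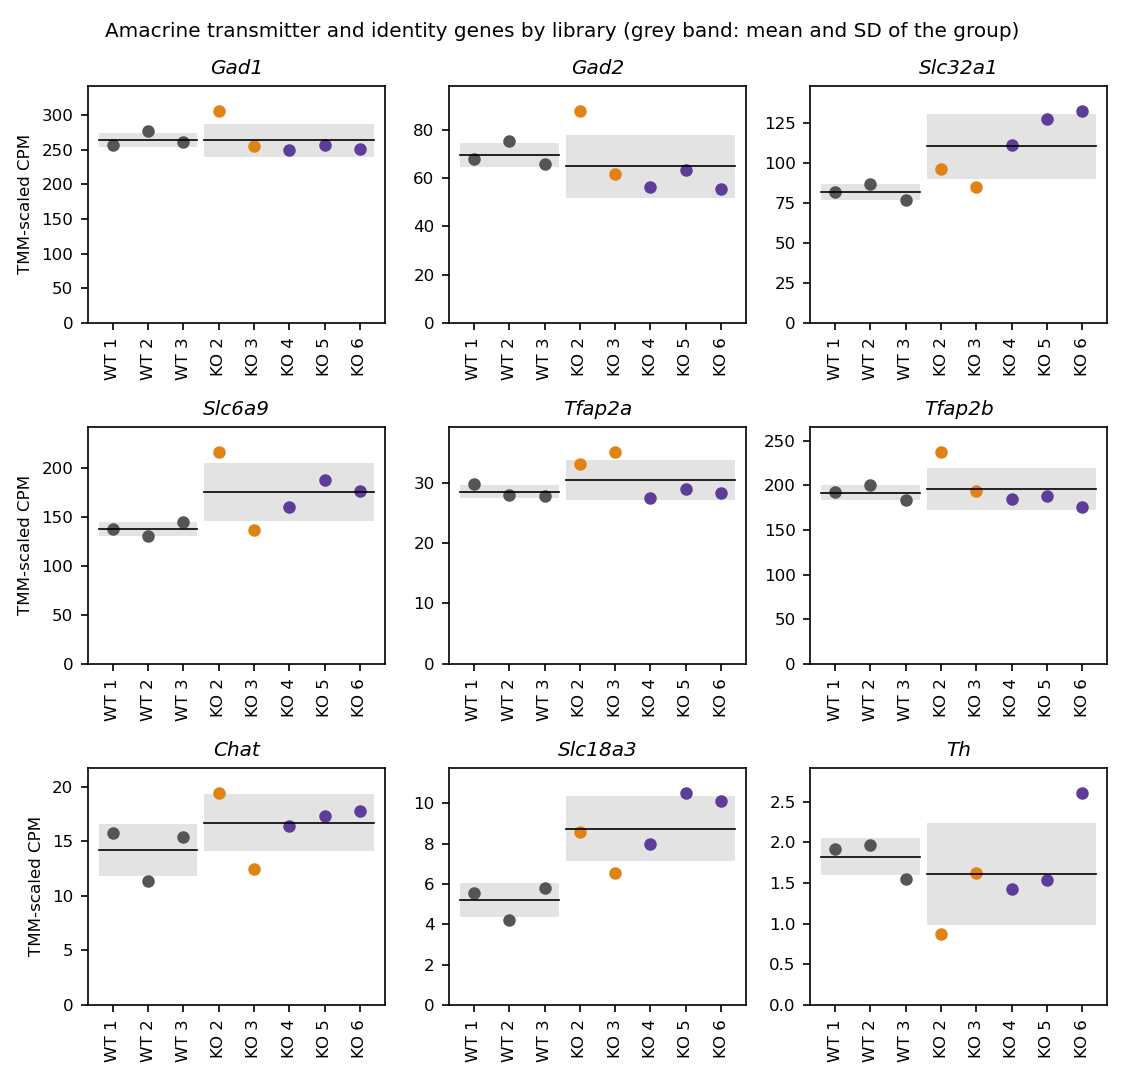
TMM-scaled CPM of the 9 genes (vertical axes, each from 0) in the 3 WT libraries (grey points), KO 2 and KO 3 (orange) and KO 4 to KO 6 (purple), with the line and band giving the mean and SD of the 3 WT and of the 5 KO libraries. Slc18a3 is the one gene with all 5 KO points above all WT points, while Gad1, Gad2 and Tfap2b are highest in KO 2 at 305, 87.6 and 237 CPM.

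The GABA synthesis genes showed no call over 8 libraries. Gad1, which encodes the larger and more widely distributed decarboxylase GAD67, measured 256, 276 and 260.4 CPM in WT and 305, 255, 249.6, 256 and 251 CPM in KO 2 to KO 6. KO 2 was the highest library and the other 4 lay just below the lowest WT value, so that the means were 264 ± 10.5 CPM (SD, n = 3) and 263 ± 23.6 CPM (SD, n = 5). On the log2 scale Gad1 differed by 0.00 ± 0.10 (SE; adjusted p = 0.983), by 0.09 ± 0.12 in KO 2 and KO 3 and by -0.06 ± 0.05 in KO 4 to KO 6.

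Gad2, the gene of the synaptic decarboxylase GAD65, measured 67.8, 75.4 and 65.7 CPM in WT and 87.6, 61.6, 56.2, 63.5 and 55.3 CPM in KO 2 to KO 6. KO 2 again stood above every WT library and KO 3 to KO 6 stood below every one of them. Over 8 libraries the log2 fold change was -0.10 ± 0.14 (SE; adjusted p = 0.683), and its sign differed between KO 2 and KO 3 (0.10 ± 0.14, adjusted p = 0.745) and KO 4 to KO 6 (-0.24 ± 0.08, adjusted p = 0.0216, called lower). With the GC correction the value for KO 4 to KO 6 was -0.05 ± 0.07 (adjusted p = 0.617). The count of Gad2 per count of Gad1 was 0.252 to 0.273 in WT, 0.287 in KO 2 and 0.220 to 0.248 in the other 4.

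Slc32a1, the vesicular transporter shared by GABA and glycine, measured 81.7, 86.5 and 76.9 CPM in WT. In KO 2 to KO 6 it measured 96.2, 84.8, 111, 127 and 132 CPM. KO 3 lay among the WT libraries and the other 4 lay above them, with KO 4 to KO 6 well clear. Over 8 libraries the log2 fold change was 0.43 ± 0.14 (SE; adjusted p = 0.0838), with 0.15 ± 0.10 (adjusted p = 0.424) for KO 2 and KO 3, and 0.60 ± 0.08 (adjusted p = 5.43e-05) for KO 4 to KO 6, a 1.52-fold difference. Per count of Gad1, Slc32a1 stood at 0.295 to 0.319 in WT, 0.315 in KO 2, 0.332 in KO 3, and 0.443, 0.498 and 0.526 in KO 4 to KO 6. This ratio separated KO 4 to KO 6 from the rest more than KO from WT. Whether Slc32a1 differed between KO 2 and KO 3 and KO 4 to KO 6 was not tested.

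Slc6a9, the glycine transporter of glycinergic amacrine cells, measured 138, 131 and 145 CPM in WT and 216, 137, 160.3, 188 and 177 CPM in KO 2 to KO 6. KO 3 fell among the WT libraries, and KO 2 was the highest of all. Its log2 fold change was 0.35 ± 0.14 (SE; adjusted p = 0.132) over 8 libraries and 0.36 ± 0.17 (adjusted p = 0.300) for KO 2 and KO 3, whose values lay far apart. For KO 4 to KO 6 it was 0.35 ± 0.07 (adjusted p = 0.00124, called higher).

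**Figure D2:**
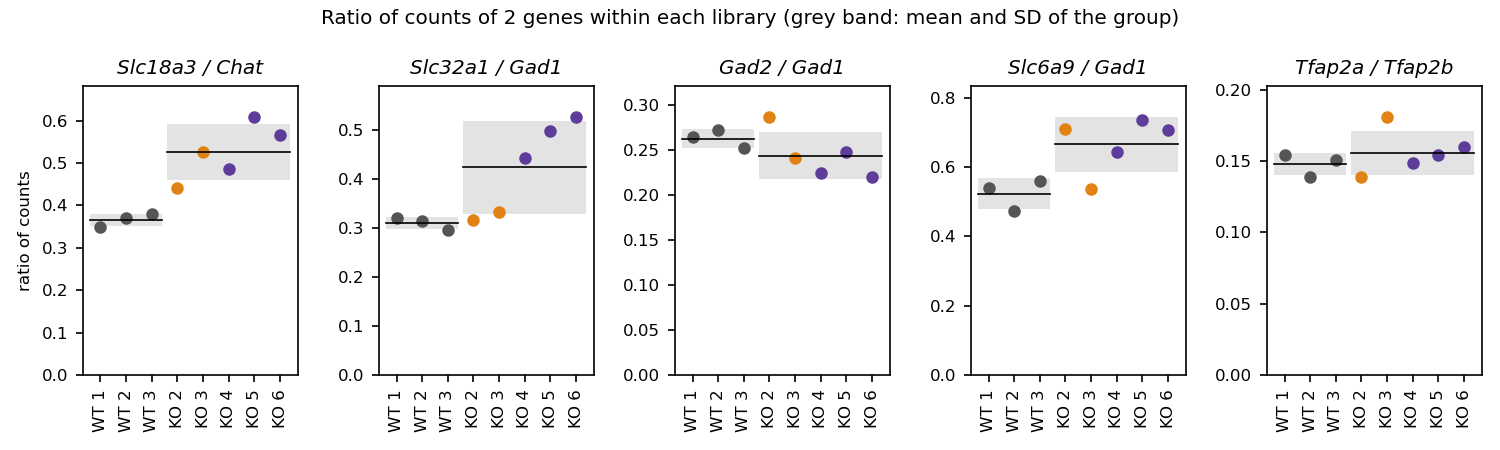
Ratio of the counts of 2 genes within each library (vertical axes, each from 0), with WT in grey, KO 2 and KO 3 in orange and KO 4 to KO 6 in purple, and with the line and band giving mean and SD of the 3 WT and 5 KO libraries. Slc18a3 to Chat is above all WT values in all 5 KO libraries, while Slc32a1 to Gad1 is at 0.443 or more in KO 4 to KO 6 alone.

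The AP-2 genes stayed near the WT level. Tfap2a, whose product, like that of Tfap2b, marks most amacrine cells, measured 29.8, 27.9 and 27.8 CPM in WT and 33.0, 35.0, 27.5, 29.0 and 28.2 CPM in KO 2 to KO 6. KO 2 and KO 3 were above every WT library and KO 4 to KO 6 were among or next to them. The log2 fold change was 0.10 ± 0.11 (SE; adjusted p = 0.566) over 8 libraries, 0.26 ± 0.10 (adjusted p = 0.219) for KO 2 and KO 3, and 0.00 ± 0.07 for KO 4 to KO 6.

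Tfap2b measured 193, 200.4 and 184 CPM in WT and 237, 194, 185, 188 and 176 CPM in KO 2 to KO 6. Only KO 2 lay above the WT range and only KO 6 below it. The log2 fold change was 0.03 ± 0.11 (SE; adjusted p = 0.899), with 0.17 ± 0.12 for KO 2 and KO 3 and -0.06 ± 0.06 for KO 4 to KO 6, and it was -0.01 when libraries were scaled by their total alone. Tfap2a per count of Tfap2b ran from 0.139 to 0.154 in WT and from 0.139 to 0.181 in the libraries labelled KO.

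Th, the marker of dopaminergic amacrine cells, was the least abundant of the 9. It measured 1.92, 1.97 and 1.55 CPM in WT and 0.868, 1.62, 1.43, 1.53 and 2.60 CPM in KO 2 to KO 6, from 20 to 57 counts. The libraries labelled KO ran from the lowest to the highest of all 8. With a log2 fold change of -0.17 ± 0.32 (SE; adjusted p = 0.767), no difference was detectable at this depth. Its sign differed between KO 2 and KO 3 (-0.55 ± 0.37, adjusted p = 0.449) and KO 4 to KO 6 (0.05 ± 0.29, adjusted p = 0.912).

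Over 8 libraries, DESeq2 called Slc18a3 and Slc32a1, and limma voom called these and Slc6a9, all higher, or 22.2% and 33.3% of the 9 beside 15.5% and 40.9% of all tested genes. Of the 9 genes, edgeR called 0 for KO 2 and KO 3 against WT, where 0.891% of tested genes were called, and 2 (Slc18a3 and Tfap2a) had an unadjusted p under 0.05 there. For KO 4 to KO 6 against WT, 3 were called higher (Slc18a3, Slc32a1 and Slc6a9) and 1 lower (Gad2), or 44.4%. In that comparison 42.8% of all tested genes were called, 22.3% higher and 20.5% lower, so the members' share was close to that of all genes. The values of 6 of the 9 genes in KO 4 to KO 6 did not overlap those in WT (Gad1, Gad2, Slc32a1, Slc6a9, Chat and Slc18a3), and 52.4% of all genes showed this. The median log2 fold change of the 9 was 0.10 over 8 libraries, 0.17 for KO 2 and KO 3 and 0.05 for KO 4 to KO 6, beside medians over all tested genes of 0.0007, -0.0015 and 0.0051.

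**Figure D3:**
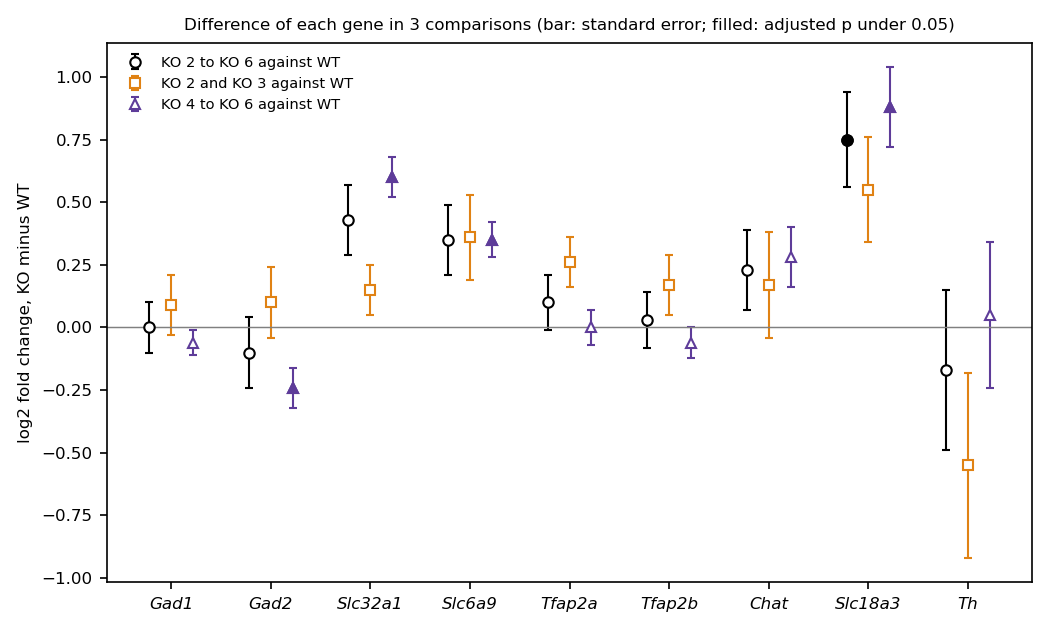
Log2 fold change against the 3 WT libraries (vertical axis) of each gene for all 5 KO libraries (circles), KO 2 and KO 3 (squares) and KO 4 to KO 6 (triangles), with bars for the standard error and filled symbols for an adjusted p under 0.05. The filled symbols are Slc18a3 at 0.75 over all libraries and Slc18a3, Slc32a1, Slc6a9 and Gad2 for KO 4 to KO 6.

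The base composition of the transcripts differed among the 9 genes. GC content of the longest transcript was 61.9% in Slc32a1, 61.2% in Slc18a3, 57.0% in Slc6a9, 54.3% in Chat, 54.1% in Th, 48.7% in Tfap2a, 47.3% in Gad1, 46.3% in Tfap2b and 44.1% in Gad2. For KO 4 to KO 6 the 3 genes called higher were the 3 with the highest GC content, and the gene called lower had the lowest. The order was not exact, since Slc18a3 (0.88) stood above Slc32a1 (0.60) at a slightly lower GC content. Otherwise the log2 fold changes for KO 4 to KO 6 fell with GC content, Gad1 and Tfap2b being level at -0.06. Th, at 0.05, followed that order. Over 8 libraries, a different comparison, Th (-0.17) stood below genes of lower GC content. Taken over all genes with a known GC content, which do not count as replicates, the rank correlation (Spearman's rho) of GC content with log2 fold change was 0.534 for KO 4 to KO 6, 0.169 for KO 2 and KO 3 and 0.459 for all 5. When each library's trend with GC content was removed by an offset, KO 4 to KO 6 differed from WT by 0.51 ± 0.15 (SE; adjusted p = 0.0202) in Slc18a3 and by 0.22 ± 0.07 (adjusted p = 0.0233) in Slc32a1. With the same offset the difference was 0.07 ± 0.06 (adjusted p = 0.404) in Slc6a9 and 0.08 ± 0.11 (adjusted p = 0.626) in Chat. Thus 2 of 9 were called with the offset for KO 4 to KO 6, beside 32.2% of all genes, and 0 of 9 over all 8 libraries, beside 5.78%, where Slc18a3 alone had an unadjusted p under 0.05. The offset removes any difference that follows GC content, whatever its source, and the part of GC content in these results was not tested.

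**Figure D4:**
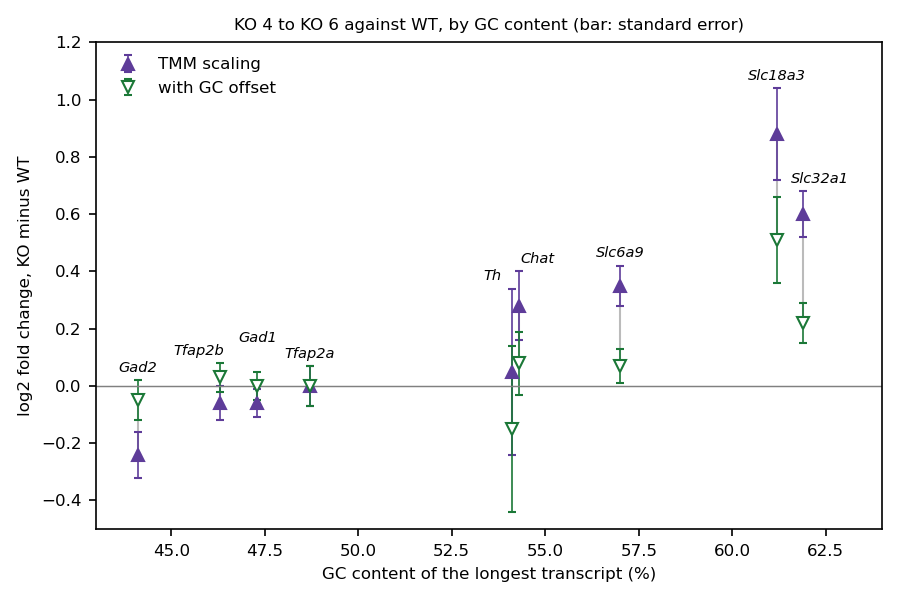
Log2 fold change of KO 4 to KO 6 against WT (vertical axis) by GC content of the longest transcript in percent (horizontal axis), with TMM scaling (filled purple) and with the GC offset (open green) and bars for the standard error. With TMM scaling Gad2 is lowest, at -0.24 and 44.1% GC, Slc18a3 highest, at 0.88 and 61.2% GC, and Slc32a1 at 0.60 and 61.9% GC, and the offset brings Slc6a9, Chat and Gad2 to within 0.08 of 0.

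Levels of different genes are compared per kilobase of the longest transcript. In WT, Gad1 was the most abundant at 73.3 ± 2.92 CPM per kb (SD, n = 3), followed by Slc6a9 at 39.7, Tfap2b at 32.7, Slc32a1 at 29.2, Gad2 at 12.1, Tfap2a at 8.17, Chat at 4.97, Slc18a3 at 2.15 and Th at 0.933. Each neighbour in this WT order was separated by more than the SDs of the pair. In the libraries labelled KO, Slc32a1 (39.4 ± 7.19 CPM per kb; SD, n = 5) stood above Tfap2b (33.4 ± 4.08), and neither this pair, nor Slc32a1 and Slc6a9 (50.6 ± 8.51), nor Gad2 (11.3 ± 2.30) and Tfap2a (8.75 ± 0.949) differed beyond their spread. The CPM of all 9 genes summed to 782 to 815 in WT, 1005 in KO 2, 789 in KO 3 and 815 to 881 in KO 4 to KO 6.

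Some counts may be shared with other genes, since the use of strand in counting is not given in the sources used here. Slc32a1 (chr2:158610767-158615748) has exons overlapped by the antisense gene Gm14205, which had 0 to 14 counts per library. Exons of Slc6a9 (chr4:117834506-117875198) are overlapped by B4galt2, Ccdc24 and Gm17114 (not analysed here) on the other strand, and B4galt2 fell by 0.43 on the log2 scale (adjusted p = 0.0165). Those of Tfap2a (chr13:40715302-40738376) are overlapped by Gm26688, with 8 to 30 counts per library, by Gm47061, with 3 to 19, and by Gm47067, not analysed here. The share of 31-base words found also in another gene was 28.45% for Slc6a9, 24.18% for Slc32a1 and 12.71% for Tfap2a, and at most 4.01% for the other 6. For Slc18a3, Gad1 (chr2:70553072-70602014), Gad2 (chr2:22622205-22693874), Tfap2b (chr1:19208914-19238576), Chat and Th (chr7:142892752-142931128), no exon of another gene overlapped. Slc18a3 nonetheless lies within the span of Chat on the same strand. Unspliced Chat RNA could therefore enter its count and its ratio to Chat, which was not tested.

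For each of the 9, the tested gene with the most similar profile over the 8 libraries was found by the root-mean-square (RMS) difference of log2 CPM centred on each gene's mean. Slc32a1 was nearest to Pld3 (RMS 0.0388), Slc6a9 to Slc17a7 (0.0359), Slc18a3 to Mtcl2 (0.102) and Chat to Nr2f2 (0.0700). Gad1 was nearest to Pank2 (0.0306), Gad2 to Zfp87 (0.0484), Tfap2a to Parm1 (0.0430), Tfap2b to Ap1g1 (0.0239) and Th to Tincr (0.115). No member had another member as its nearest gene.

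The transmitter pathways around the 9 genes were examined through 6 lists that held 63 further genes, of which 60 were tested. Over 8 libraries 3 of them were called higher and 3 lower, or 10% beside 7.58% of all genes. For KO 4 to KO 6 against WT, 12 were called higher and 18 lower, or 50% beside 42.8%, and for KO 2 and KO 3 against WT edgeR called 0, with 16 at an unadjusted p under 0.05.

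In the list for GABA, Slc6a11, which encodes the uptake transporter GAT3, rose from 178 ± 8.70 CPM (SD, n = 3) to 261 ± 41.4 CPM (SD, n = 5), a log2 fold change of 0.56 ± 0.14 (SE; adjusted p = 0.0421). It was 0.38 (adjusted p = 0.232) for KO 2 and KO 3, 0.67 (adjusted p = 4.60e-06) for KO 4 to KO 6, and 0.43 (adjusted p = 0.0762) over 8 libraries with the GC offset. The other 4 genes beside Gad1, Gad2 and Slc32a1 were not called. Muller glia, the radial glia of the retina, also express this transporter, and 3 of 8 Muller glia markers were called higher over 8 libraries, beside 4.74% of all genes. The summed level of those markers was 3678 to 3878 CPM in WT and 3976 to 5580.2 CPM in the libraries labelled KO. These ranges did not overlap, a pattern shown by 20.9% of single tested genes. None of the markers was at 0, and their part in the result was not tested. In the list for glycine, edgeR called none of the 6, with Slc32a1 and Slc6a9 at an unadjusted p under 0.05. DESeq2 called Slc32a1, beside 15.5% of all genes, and limma voom called both, beside 40.9%. Slc6a5, the neuronal glycine transporter GlyT2, stood at 31.9 ± 1.89 and 30.1 ± 0.910 CPM (SD), and Gldc, of the glycine cleavage system, at 36.6 ± 0.863 and 39.7 ± 9.12 CPM (SD), in WT and KO.

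In the list for acetylcholine and starburst cells, edgeR called Slc18a3 and Megf10 higher over 8 libraries and none of the 8 genes lower. It called 7.58% of all tested genes. DESeq2 called Ache and Sox2 higher as well, beside 15.5% of all genes called. Beyond these, limma voom, which called 40.9% of all genes, called Slc5a7, the choline transporter, lower. Slc5a7, named here after its values were seen, was at 22.7, 22.9 and 21.6 CPM in WT and 21.5, 20.2, 15.2, 14.8 and 15.0 CPM in KO 2 to KO 6, so that the groups did not overlap (log2 fold change -0.37 ± 0.15, SE; adjusted p = 0.135 with edgeR). For KO 4 to KO 6 against WT it was called lower (-0.57, adjusted p = 0.000133), where 42.8% of all genes were called. Megf10, a receptor that spaces the cell bodies of starburst amacrine cells, measured 23.3, 24.0 and 21.5 CPM in WT and 31, 28.6, 37.1, 35.7 and 32.2 CPM in KO 2 to KO 6. The groups did not overlap, and the log2 fold change was 0.52 ± 0.11 (SE; adjusted p = 0.0254), 0.38 for KO 2 and KO 3 and 0.62 for KO 4 to KO 6. With the GC offset it was 0.55 (adjusted p = 0.0199), and its GC content is 48.0%. Sox2, which starburst cells and Muller glia share and which was also chosen after its values were seen, was at 20.1 ± 1.49 and 26.6 ± 2.67 CPM (SD; adjusted p = 0.0527).

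Of 11 tested genes for dopamine, Th included, edgeR and DESeq2 called none over 8 libraries and none had an unadjusted p under 0.05. By contrast, limma voom called 3 (Drd1, Maoa and Slc18a2), beside 40.9% of all genes. In KO 4 to KO 6 against WT, edgeR called these 3 lower and Drd2 higher, where 42.8% of all genes were called. With the GC offset, where 32.2% were called, Drd1 and Slc18a2 were still called lower, and Maoa and Drd2 were not called. Drd4, the dopamine receptor of photoreceptors, was at 175 ± 13.3 and 183 ± 18.4 CPM (SD) in WT and KO. Slc6a3, the dopamine transporter, had too few counts to be tested. Of 17 amacrine transcription factors tested, Tfap2a and Tfap2b included, edgeR called none over 8 libraries, with 4 at an unadjusted p under 0.05. DESeq2 called 1, beside 15.5% of all genes, and limma voom 5, beside 40.9%, neither AP-2 gene among them. When KO 4 to KO 6 were set against WT, edgeR called 2 higher (Barhl2 and Prdm13) and 3 lower (Bhlhe22, Neurod1 and Neurod4), 5 of 17 beside the same 42.8%. Neurod1 was at 419 ± 7.22 and 393 ± 26.3 CPM (SD) and Pax6 at 285 ± 8.84 and 293 ± 19.1 CPM (SD).

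Among 21 subtype and peptide genes, edgeR called 3 lower and 1 higher over 8 libraries, beside 7.58% of all genes called. DESeq2 called 5 of the 21 (15.5% of all genes), limma voom 13 (40.9%), and edgeR with the GC offset 2, Tac1 and Vip (5.78%). With KO 4 to KO 6 against WT, edgeR called 10 lower and 3 higher, beside 20.5% and 22.3% of all genes. Tac1, the precursor of substance P, measured 19.7, 21.6 and 20.6 CPM in WT and 10.1, 14.1, 10.8, 10.2 and 10.8 CPM in KO 2 to KO 6. The groups were well apart, with KO 3 nearest to WT, and the log2 fold change was -0.88 ± 0.13 (SE; adjusted p = 0.00644), -0.77 for KO 2 and KO 3 and -0.95 for KO 4 to KO 6. Vip, a peptide of GABAergic amacrine cells, fell from 11.4 ± 0.949 to 6.67 ± 0.970 CPM (SD; log2 fold change -0.77 ± 0.15, adjusted p = 0.0182), again with no overlap, and by 0.45 on the log2 scale with the GC offset (adjusted p = 0.0442). Calb1, a calcium-binding protein of horizontal and some amacrine cells, fell by 0.49 on the log2 scale (SE 0.13; adjusted p = 0.0454), and was at -0.08 with the GC offset (adjusted p = 0.744). C1ql2, a secreted protein of the C1q family, rose by 0.60 (SE 0.16; adjusted p = 0.0462), though KO 3, at 28.9 CPM, lay below WT 1, at 29.5 CPM. With the GC offset C1ql2 was at 0.31 (adjusted p = 0.117). For KO 2 and KO 3 and for KO 4 to KO 6 the values were -0.56 and -0.91 in Vip, -0.28 and -0.64 in Calb1, and 0.34 and 0.76 in C1ql2. With the GC offset they were -0.42 and -0.46 in Vip, -0.07 and -0.08 in Calb1 and 0.24 and 0.36 in C1ql2, and no pair was tested against each other.

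When each of the 8 libraries was left out in turn, the call for Tac1 was lost without WT 2 (adjusted p = 0.0511) and kept in the other 7 fits. Over all 35 alternatives Tac1 was called in 28, and for KO 2 and KO 3 against WT it was not (adjusted p = 0.0713). Vip was called without KO 2, KO 3 or KO 6, and adjusted p was 0.0503 to 0.111 without WT 1, WT 2, WT 3, KO 4 or KO 5. Megf10, Slc6a11, Calb1 and C1ql2 were called without KO 2 or KO 3, and adjusted p was 0.0501 to 0.186 over the 4 genes without each of WT 1 to WT 3 and KO 4 to KO 6.

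**Figure D5:**
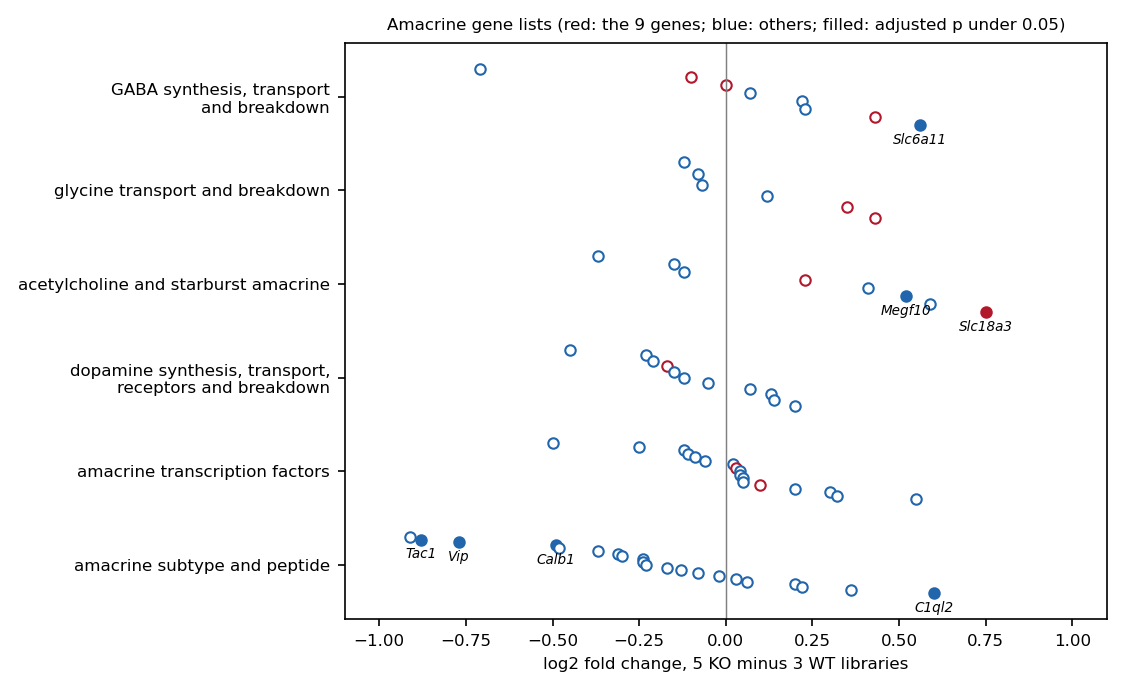
Log2 fold change of 5 KO against 3 WT libraries (horizontal axis) of each tested gene in the 6 lists (rows), with the 9 genes in red, other genes in blue and filled symbols for an adjusted p under 0.05. Tac1, Vip and Calb1 are the filled symbols below 0, and Slc6a11, Megf10, Slc18a3 and C1ql2 those above it.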

How the data were processed

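RNA from whole retina was sequenced in 3 WT and 5 KO libraries. The authors deposited a table of counts per gene, whole numbers for 26824 Ensembl genes, each with at least 16 counts in total. The submitters' processing notes name GRCm38, Trim Galore, Salmon 1.10.2 and DESeq2 without their roles, so whether the deposited counts are rounded estimates is not given in the sources used here, nor is strand. Depth was 17759146 to 25188870 counts per library, and a floor of 3 counts covers counting error alone, because PCR copies cannot be told from molecules here. Nothing says whether the libraries of a group came from separate litters, so p-values measure the spread between these libraries. No pair of libraries of a group agreed within sampling noise (chi-square per degree of freedom at least 5.38).

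Counts were tested in edgeR 4.0.16 under R 4.3.3 (filterByExpr, TMM, glmQLFit and glmQLFTest, no covariate) on all 8 libraries, with Benjamini-Hochberg adjustment over the 20167 tested genes. Standard errors are the fold change divided by the square root of F. The exact permutation test used scipy 1.17.1 on log2(CPM + 0.1), two-sided. The members and lists were chosen with earlier results of these data known. Genes named are Kcnv2, the 9 members, each called gene of the 6 lists, up to 2 of the most abundant genes of a list with no call outside the members, and each member's nearest profile among tested genes averaging 1 or more in log2 CPM. Other genes named fall outside this rule and were chosen after their values were seen, among them list genes called in an alternative, called markers of other cells, Slc6a3 and genes that overlap a member. A gene that met the rule is not reported here. GENCODE M21 (GRCm38), matched by identifier, held 22121 of the 26824 genes and all 9 members, and gave positions, GC content and overlaps, and RefSeq windows were found for 9 of 9 members.

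Alternatives were DESeq2 1.42.0 and its size factors, library size alone, limma voom 3.58.1 with quality weights, robust estimation, no or a stricter filter (1 CPM in 3 libraries), lens or mitochondrial genes left out, each library and each pair of KO libraries left out, KO 2 and KO 3 against WT, a replicate block, and a GC offset (a natural spline with 5 degrees of freedom per library). The crossed pairing and the GC offset within KO 2 and KO 3 or KO 4 to KO 6 were added after seeing the data. The fits were tested on simulated data with known changes.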

Additional observations from a re-analysis of the deposited data

Results flagged for a closer look

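Within the 5 libraries labelled KO, 27 values (gene levels and ratios) were examined for a library set apart by a gap of over 0.71 of the group's range, which chance gives in about 1 in 20 groups, or 1.4 of 27. In 6 of them a gap passed this limit. All 27 values come from the same 5 libraries, and ratios share counts with gene levels. They are not separate draws, so 6 cannot be weighed against 1.4. KO 2 was the highest library in 4 of them: Gad1 at 305 CPM, Gad2 at 87.6 CPM, Tfap2b at 237 CPM and Kcnv2 at 585 CPM, with gaps of 0.887 of the range in Gad1, 0.745 in Gad2 and 0.738 in Kcnv2, and Tfap2b just past the limit. KO 3 was the highest library for Tac1, at 14.1 CPM (gap 0.833), which was still below every WT library. KO 3 was the lowest for Slc6a11, at 189 CPM (gap 0.765), which was just above the highest WT library. Lens genes took 5.02% of the counts of KO 3, and the part of this in the 2 gaps was not tested.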

How the results depend on the processing

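The call for Slc18a3 (log2 fold change 0.75) kept its sign in all 35 alternatives run, at 0.46 to 0.91, and passed the threshold in 14 of them, with adjusted p from 0.000926 to 0.668. It missed the threshold with library size alone (adjusted p = 0.0620) and with no filter (0.0513). The 1 member called became 2 with DESeq2, 3 with limma voom, 2 for KO 4 to KO 6 with GC offset, and 0 with library size alone, with no filter, for KO 2 and KO 3 with or without GC offset, and with GC offset over all libraries. Leaving out 1 library or 2 KO libraries gave 0 to 4 members called, 0 to 30 of the other list genes (6 with all libraries), and 118 to 8416 of all genes (1529 with all libraries). All-gene counts were 3127 with DESeq2, 8248 with limma voom, 5695 for KO 4 to KO 6 with GC offset, 180 for KO 2 and KO 3 and 176 for these with GC offset. With library size alone 566 genes were higher and 787 lower, against 956 and 573 with TMM, and no member reached the threshold. Other list genes called were 3 with no filter, 10 with DESeq2, 29 with limma voom, 3 with GC offset, 26 for KO 4 to KO 6 with GC offset and 0 for KO 2 and KO 3 with or without it. Kcnv2 passed the threshold in 4 alternatives, at -0.36 with limma voom, -0.37 for KO 4 to KO 6 with GC offset, -0.38 for KO 4 to KO 6 and -0.35 without KO 2, and ran from -0.38 to -0.15 when libraries were left out. The cause of these changes was not tested.

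The numbers 2 and 3 occur in both groups but nothing ties them to animals, and deviations of same-numbered libraries correlated at r = -0.19 over genes. With a replicate block on these 4 libraries 52 genes, 0 members and 0 other list genes were called, against 14, 0 and 0 with no replicate block and 33, 0 and 0 with GC offset and replicate block. The crossed pairing called 527, 0 and 2.

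Some values not called over 8 libraries changed sign. Gad2 (-0.10) was 0.10 for KO 2 and KO 3 (0.16 with GC offset), 0.03 with GC offset, 0.06 with either replicate block, 0.08 with no replicate block, 0.11 with GC offset and block, and -0.26 to 0.03 with libraries left out. Tfap2b (0.03) was -0.01 with library size alone, -0.05 with limma voom and -0.06 to 0.10 with libraries left out, negative only without KO 2. Th ran from -0.51 to 0.08 with libraries left out. Gldc (0.12) was -0.04 with limma voom, -0.26 for KO 4 to KO 6 with GC offset, where it was called lower (adjusted p = 0.0369), and -0.08 to 0.29 with libraries left out. Drd4 (0.07) was -0.13 with GC offset, -0.08 with the block as well, -0.20 with it in KO 4 to KO 6, -0.04 with it in KO 2 and KO 3, and -0.02 to 0.17 with libraries left out. Neurod1 (-0.09) was 0.01 for KO 2 and KO 3, 0.05 with GC offset and block, and 0.06 with GC offset in the other 3 fits. Pax6 (0.04) was -0.05 in the 6 fits on KO 2 and KO 3, the 3 blocks included, and -0.02 to 0.11 with libraries left out. Depth limits Th most, at 20 to 57 counts per library.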

Other observations

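The single genes named in this and the next paragraph were chosen after their values were seen. Several transmitter genes were called for KO 4 to KO 6 against WT and not for KO 2 and KO 3, as were most genes called in the former, which called 42.8% of all genes beside 0.891% in the latter. The difference between these comparisons was not tested. Ache, the enzyme that breaks acetylcholine down, was at 48.6, 42.6 and 46.1 CPM in WT, 58.9 and 46.4 CPM in KO 2 and KO 3, and 78.2, 81.7 and 78.5 CPM in KO 4 to KO 6 (log2 fold change of KO 4 to KO 6 against WT 0.81, adjusted p = 3.61e-06, and 0.49 with the GC offset). Slc5a7, the choline transporter that feeds Chat, was called lower there (-0.57, adjusted p = 0.000133, and -0.23 with the offset, adjusted p = 0.0396). Slc18a2, which loads dopamine into vesicles, was also called lower (-0.78, adjusted p = 0.000856). Barhl2, a transcription factor of amacrine and ganglion cells, was called higher (0.83, adjusted p = 0.000135), and Neurod4 was called lower (-0.83, and -0.35 with the offset). Over all 8 libraries the adjusted p of these 5 genes was 0.0636 (Ache) to 0.228 (Slc18a2).

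Penk, the enkephalin precursor, was at 65.9, 57.9 and 51.5 CPM in WT, 50 and 44.9 CPM in KO 2 and KO 3, and 16.8, 31.6 and 11.9 CPM in KO 4 to KO 6. Slc6a13, the GABA transporter GAT2, was at 24.2, 22.6 and 24.9 CPM in WT, 27.3 and 19.3 CPM in KO 2 and KO 3, and 7.19, 14.1 and 5.28 CPM in KO 4 to KO 6. In both genes KO 6 was lowest and KO 5 was the highest of the last 3 libraries. Over 8 libraries their log2 fold changes were -0.91 ± 0.38 (SE; adjusted p = 0.155) and -0.71 ± 0.42 (adjusted p = 0.306) with edgeR, while limma voom called both. For KO 4 to KO 6 against WT both were called lower, at -1.53 (adjusted p = 0.00033) and -1.43 (adjusted p = 0.000558). Among other peptides, Sst was at 3.16 ± 1.51 and 3.11 ± 1.25 CPM (SD) and Npy at 8.58 ± 1.38 and 8.12 ± 1.87 CPM, in WT and KO. Calb2, the calretinin gene, was at 259 ± 12.4 and 237 ± 38.1 CPM, and over 8 libraries edgeR did not call it (adjusted p = 0.56) while limma voom did. For KO 4 to KO 6 against WT edgeR called it lower (-0.28, adjusted p = 0.00175, and -0.46 with the GC offset).

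Beside the Muller glia list, 3 of 8 further marker lists of other cells had summed levels that did not overlap between the genotype labels, and no list was tested. Of single tested genes, 20.9% showed no overlap. The summed level of 9 cone markers was 975 to 1215 CPM in WT and 707 to 930.3 CPM in KO, of 5 endothelial markers 143 to 149 and 193 to 291 CPM, and of 8 microglial markers 31.1 to 35.3 and 39.3 to 54.9 CPM. Over 8 libraries edgeR called 3 cone markers lower (Gnat2, Gngt2 and Pde6h) and 1 higher (Pde6c), 1 endothelial marker higher (Kdr) and 2 microglial markers higher (Csf1r and Tmem119), where 4.74% of all genes were called higher and 2.84% lower. With the GC offset it called 2 cone markers lower and 1 higher and 1 endothelial marker higher, and both microglial calls were lost. In that fit 5.78% of all genes were called. Rod (41526 to 45041 and 37197 to 54879 CPM), bipolar (1424 to 1493 and 1341 to 1638 CPM), horizontal (346 to 374 and 319 to 379.6 CPM), ganglion cell (1097 to 1203 and 1069 to 1492 CPM) and pigment epithelium markers (58.8 to 74.6 and 72.3 to 119 CPM) overlapped between groups. None of the markers in these 8 lists was at 0 in any library, and 8 of 16 lens markers were at 0 in at least 1. Their part in the results for the 9 genes was not tested.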
